A study of Homo sapiens with 6 samples.

Results

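The mucin genes of MDA-MB-231 cells were examined in the total RNA-seq experiment on *RBMS3* knockdown. They were taken as all genes of the deposited table whose symbol is MUC followed by a number and optional letters, and 4 of 15917 listed genes met this rule: *MUC5AC*, *MUC1*, *MUC4* and *MUC5B*. The family was chosen by the size of the change of *MUC5AC* and *MUC5B* in the authors' comparison of knockdown with control cells, and the values of that comparison are neither shown nor tested here. MDA-MB-231 is an established human breast cancer line of the triple-negative type. All cells were of this line and carried a hairpin construct: 2 libraries came from cells with the control hairpin (shCTRL, genotype WT), 2 from cells with hairpin shRBMS3-B3 (RBMS3 KD1) and 2 from cells with hairpin shRBMS3-C3 (RBMS3 KD2). The methods describe lentiviral transduction of luciferase-labeled cells and puromycin selection. The value analysed for each gene is the authors' mean normalized count, averaged over libraries that the table does not name, so it describes how much of a transcript these cells held and not how it differed between conditions. No value of a single library was analysed here, the depth per library is unknown, and no error or test can be attached to a level.

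Mucins are large glycoproteins whose central regions are rich in serine, threonine and proline and carry dense O-linked sugars. MUC5AC and MUC5B are secreted, polymerize through cysteine-rich ends and form the gel of airway and other mucus. MUC1 and MUC4 are anchored in the plasma membrane, where MUC4 can bind the receptor ERBB2 and the MUC1 tail takes part in signaling. Their genes hold tandem repeats, and in some mucin genes the number of repeats varies between people. A transcript in this line may therefore differ in length from that of the reference genome.

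The repeat units of the mucin transcripts are given below and were not compared with repeats of other genes. They were read from coding sequence of GENCODE release 44 on GRCh38, in frame and 5′ to 3′ on the coding strand, and capitals mark codons for threonine and serine, the residues that carry O-linked sugars.

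MUC5AC: gctcctACAACCAGCACAACCTCT

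MUC1: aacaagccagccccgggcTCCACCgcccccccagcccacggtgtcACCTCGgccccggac

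MUC4: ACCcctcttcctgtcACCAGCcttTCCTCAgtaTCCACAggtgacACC

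MUC5B: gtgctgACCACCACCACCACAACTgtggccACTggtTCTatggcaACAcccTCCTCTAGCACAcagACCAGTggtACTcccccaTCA

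The *MUC5AC* unit has 24 bases, of whose 8 codons 6 are for threonine or serine. It lies in exon 31 at chr11:1185244-1185267 on the plus strand, and the same 24 bases occur 15 times in the transcript. The *MUC5B* unit has 87 bases at chr11:1243190-1243276 on the plus strand, also in exon 31, with 17 of 29 codons for threonine or serine and 5 exact copies. The *MUC4* unit has 48 bases in exon 2 at chr3:195788034-195788081 on the minus strand, with 8 of 16 codons of this kind and 14 exact copies. The *MUC1* unit has 60 bases in exon 2 at chr1:155191913-155191972 on the minus strand, with 4 of 20 codons of this kind, and no second exact copy is in the reference transcript. Each period is the shortest whose shifted match comes within 95% of the best over periods of 9 to 180 bases. Except in *MUC1*, the unit is the in-frame stretch of that length with the most exact copies, sought over the whole coding sequence. Its copies need not adjoin each other or lie in the longest tandem tract described below.

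The secreted mucin *MUC5AC* had the highest level of the family. Its mean normalized count was 2181, against 168 for *MUC1*, 147 for *MUC4* and 129 for *MUC5B*. Of the summed mean normalized count of the 4 genes, *MUC5AC* made up 83.1%. These counts are not scaled by gene length, and the *MUC5AC* transcript is 17448 bases long while that of *MUC1* has 1811 bases.

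Levels were therefore divided by the length of a representative transcript. *MUC5AC* then had a mean normalized count of 125 per kb and *MUC1* of 92.8 per kb, which is a ratio of 1.35. *MUC4* followed with 8.76 per kb and *MUC5B* with 7.21 per kb. With this length *MUC5AC* and *MUC1* formed an upper pair and *MUC4* and *MUC5B* a lower pair. The longest tandem tract of the reference *MUC1* transcript has 7 units, and the number in this line is unknown. The place of *MUC1* in the upper pair thus rests on the reference length. *MUC5AC* stood 14.3-fold above *MUC4* per kb, and *MUC4* stood 1.22-fold above *MUC5B*, or 1.01-fold with merged exons. With the shortest coding transcripts these ratios were 3.26 and 5.32, and as unscaled counts *MUC5AC* stood apart from the other 3 genes. Without values per library it cannot be said whether neighbours in this order differ beyond the spread between replicates, nor whether the order is the same within control and within knockdown cells.

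**Figure D1:**
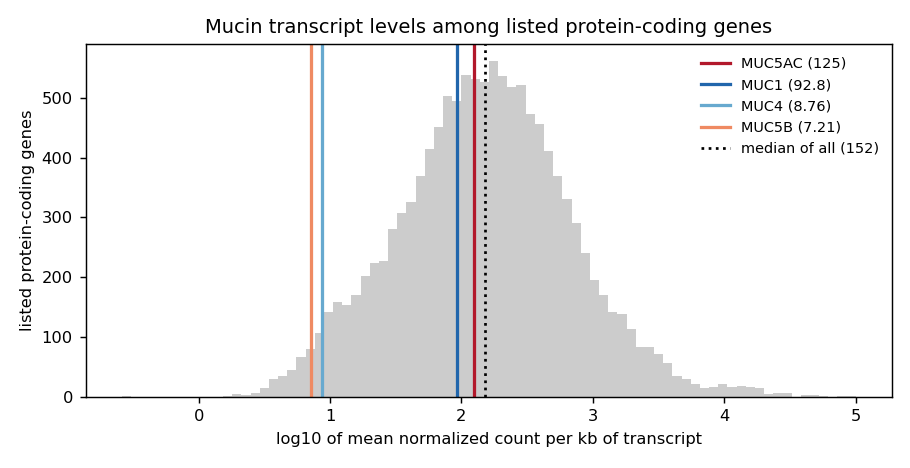
Histogram of log10 mean normalized count per kb of representative transcript for the 12408 listed protein-coding genes, with 1 colored line for each mucin gene and a dotted line at the median. *MUC5AC* (125 per kb) and *MUC1* (92.8) lie just left of the median of 152, and *MUC4* (8.76) and *MUC5B* (7.21) lie in the low tail.

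Per kb, all 4 mucin genes lay below the median of the listed protein-coding genes, which was 152. *MUC5AC* was at percentile 44.7 and *MUC1* at percentile 37.0, so both were transcripts of middling level. *MUC4* was at percentile 3.05 and *MUC5B* at percentile 2.03 of the 12408 genes. No listed gene had a mean normalized count below 26.7, so only long transcripts can reach the lowest values per kb. As mean normalized counts without length scaling, *MUC5AC* was at percentile 86.3 and the other 3 genes between percentiles 17.8 and 22.5. With the merged exons of each gene as its length, *MUC5AC* was at percentile 58.2 and above the median. Its own level stayed at 125 per kb, since its merged exons also have 17448 bases, and the lengths of other genes grew.

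*MUC5AC* (ENSG00000215182) lies at chr11:1157953-1201138 and *MUC5B* (ENSG00000117983) at chr11:1223066-1262172, both on the plus strand and 21.9 kb apart. Their levels, each a mean over libraries that are not named, differed 17.3-fold per kb, and the ratio within either condition is unknown. The gel-forming mucins *MUC2* and *MUC6* lie 47.4 and 121 kb before *MUC5AC* in the same cluster, and neither is in the table. On the other side of *MUC5B*, *TOLLIP*, an adaptor of Toll-like receptor signaling, had 287 per kb and *BRSK2*, a kinase of neurons, 10.5 per kb. *AP2A2*, a subunit of the clathrin adaptor complex and the nearest listed protein-coding gene before *MUC5AC*, had 459 per kb. *MUC5AC* thus had a lower level per kb than *AP2A2* and *TOLLIP* and a higher one than *BRSK2*, and *MUC5B* had a lower level than all 3.

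*MUC4* (ENSG00000145113) lies at chr3:195746765-195811973 on the minus strand. The membrane mucin *MUC20* is 5.64 kb away and is not in the table, while the long noncoding RNA *MUC20-OT1*, which the table lists under the older name AC069513.3, had a mean normalized count of 959. *TNK2*, a tyrosine kinase on the other side of *MUC4*, had 275 per kb. *MUC1* (ENSG00000185499) lies at chr1:155185824-155192916 on the minus strand in a gene-dense stretch. *THBS3*, a matrix thrombospondin gene whose nearer end lies 2.67 kb from it, had 21.3 per kb, and *KRTCAP2*, an oligosaccharyltransferase subunit 12.3 kb to its other side, had 1489 per kb.

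The 4 transcripts differ in layout. The coding part takes 16965 of 17448 bases in *MUC5AC*, 17289 of 17911 in *MUC5B*, 16239 of 16756 in *MUC4* and 1428 of 1811 in *MUC1*. A single exon makes up 59.4% of the *MUC5AC* transcript, 60.8% of *MUC5B* and 75.8% of *MUC4*, but the longest exon of *MUC1* makes up only 25.1%. The 3 long mucins are therefore mostly 1 long exon, which holds all or nearly all of the longest tandem tract. In *MUC4* the longest tandem tract covers 9954 bases, or 59.4% of the transcript, with about 207 units. The longest tract covers 1593 bases in *MUC5AC*, 489 in *MUC5B* and 420 in *MUC1*. These tracts were sought at a match of at least 65% between neighbouring units in windows of 150 bases.

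**Figure D2:**
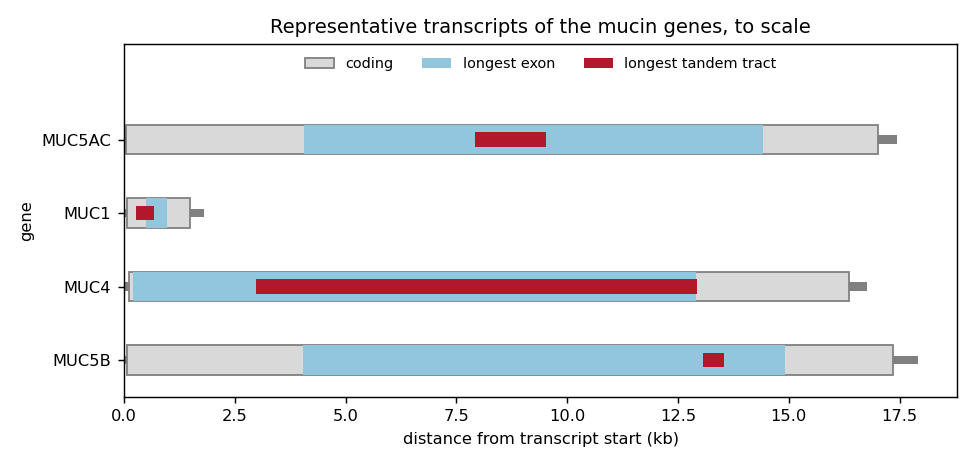
Representative transcripts of the 4 mucin genes drawn to scale in kb from the transcript start, with thin grey bars for untranslated ends, light boxes for coding sequence, blue for the longest exon and red for the longest tandem tract. The red tract fills 59.4% of *MUC4* and a far smaller part of *MUC5AC* and *MUC5B*.

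Windows of 75 bases, the read length, were used to ask how much of each transcript repeats itself or another gene. In *MUC5B*, 23.8% of 75-base windows occur more than once in the same transcript, in *MUC4* 18.0%, in *MUC5AC* 15.2% and in *MUC1* none. These shares are of the reference transcripts, and the repeat number in this line is unknown. Windows shared with the transcripts of another annotated gene were rare. *MUC5AC* and *MUC5B* shared 17 windows, which is 0.0978% of *MUC5AC* and 0.0953% of *MUC5B*. *MUC5B* also shared 312 windows, or 1.75%, with its antisense transcript *MUC5B-AS1*, which the table does not list. The library kit keeps the strand, but whether counting used it is not given in the sources used here. *MUC1* and *MUC4* shared no window with any other annotated gene. *MUC5AC* and *MUC5B* were thus distinct at this read length over nearly all of their sequence.

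All 4 genes had a share of codons for serine, threonine or proline above that of 95% of protein-coding genes. The share was 48.0% in *MUC4*, 45.5% in *MUC5AC*, 41.8% in *MUC5B* and 36.4% in *MUC1*, against a median of 18.3% over the listed genes. The coding sequence was G+C rich in *MUC5B*, at 64.5% and percentile 91.4 of the listed genes. It had 60.3% G+C in *MUC5AC*, 57.7% in *MUC1* and 57.6% in *MUC4*, beside a median of 51.9%.

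The study asks about an AUA element in 3′ untranslated regions (3′UTRs) and the RNA-binding protein RBMS3, so this end of each mucin transcript was searched for that element. The pattern has 7 bases, read in order as any base but C, then A or T, then ATA, then A or T, and last A. It was sought on the transcript strand with overlapping matches counted, and it can overlap AATAAA. The mucin 3′UTRs were short. They measured 564 bases in *MUC5B*, 436 in *MUC5AC*, 405 in *MUC4* and 311 in *MUC1*, against a median of 1383 bases over 12307 listed protein-coding genes with a 3′UTR. *MUC5B*, *MUC4* and *MUC1* held 1 match each and *MUC5AC* none. Of the listed genes, 85.0% had at least 1 match, and the median was 3.

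The 3 matches are shown because all of them hold AATAAA, a signal for polyadenylation. Capitals mark the 7 bases of the match in a window of 30 bases, and the last 30 bases of the *MUC5AC* transcript are given beside them in lower case, since they hold no match.

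MUC5B: cccagttttgcAAATAAAccctgagcattg

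MUC4: taactctatttAAATAAAgtctctctgact

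MUC1: tgaactggactGAATAAAacgtggtctccc

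MUC5AC: gttgcataaatacacttgagcattttgcaa

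The match begins 23 bases before the annotated transcript end in *MUC5B* (window at chr11:1262139-1262168, plus strand). It begins 29 bases before the end in *MUC4* (chr3:195746781-195746810, minus strand) and in *MUC1* (chr1:155185834-155185863, minus strand). The *MUC5AC* window is chr11:1201109-1201138 on the plus strand. With matches that hold AATAAA set aside, a count chosen after the values were seen, none of the 4 mucins had a match, while 62.5% of the listed genes still had at least 1. The paper, however, reports AATAAA as the most significant motif in its search of RBMS3 binding sites. The count without AATAAA thus leaves out sequences that the paper ties to RBMS3 binding. Genes whose matches all held AATAAA made up 22.5% of the listed genes. The mucin 3′UTRs had A+T contents of 34.8% in *MUC5B*, 38.3% in *MUC1*, 38.8% in *MUC5AC* and 52.3% in *MUC4*, beside a median of 57.9%. A match is a sequence description and no binding site, and the absence of one says nothing of the factor.

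The choice of transcript mattered most for the membrane mucins. GENCODE annotates 26 transcripts of *MUC1* and 22 of *MUC4*, but 5 of *MUC5B* and 1 of *MUC5AC*. The coding transcripts of *MUC4* range from 3829 to 16756 bases, and the longest exon of the shortest form has 616 bases, so it lacks the repeat exon of 12708 bases. Scaled to the shortest of them, *MUC4* had 38.3 per kb and percentile 18.2, in place of 8.76 and 3.05. Scaled to its shortest coding transcript of at least 500 bases, which has 516, *MUC1* had 326 per kb and percentile 70.2. It then stood 2.61-fold above *MUC5AC*. For these percentiles the other genes kept their representative transcripts, and transcripts annotated as incomplete were not left out of the choice. The order of *MUC1* and *MUC5AC* therefore changed with the *MUC1* transcript taken, whereas *MUC5B* was lowest with each of these lengths.

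**Figure D3:**
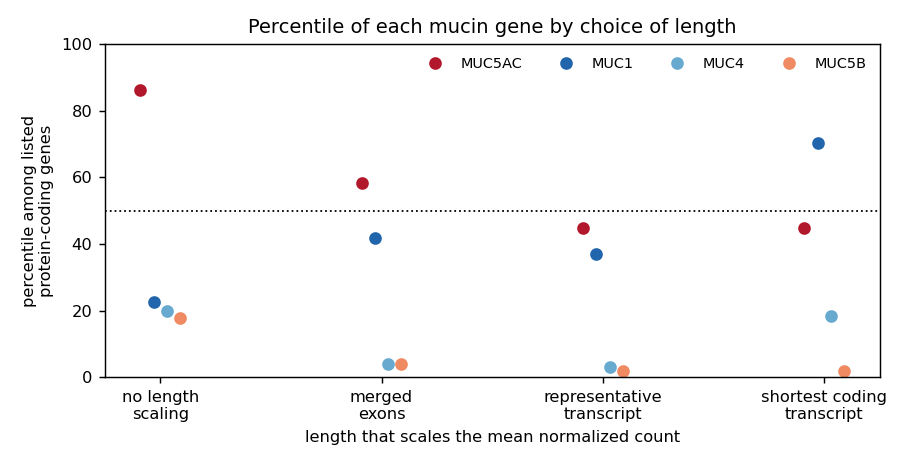
Percentile of the 4 mucin genes among listed protein-coding genes, with the mean normalized count unscaled, or scaled by merged exons, by the representative transcript or by the shortest coding transcript (only the mucin itself changes in the last). *MUC5AC* moves from 86.3 unscaled to 44.7, *MUC1* reaches 70.2 with its shortest transcript, and *MUC5B* stays lowest throughout.

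Of 19768 GENCODE protein-coding genes with a coding sequence that could be counted, 12325 were listed. Among 18 mucin names of the family looked up, 14 were not in the table. These were the secreted mucins *MUC2*, *MUC6*, *MUC7* and *MUC19*, and *MUC3A*, *MUC3B*, *MUC12*, *MUC13*, *MUC15*, *MUC16*, *MUC17*, *MUC20*, *MUC21* and *MUC22*, of which *MUC16* encodes the antigen CA125. The lowest mean normalized count of any listed gene was 26.7, and whether these 14 genes lay below it is unknown. A further list was drawn up of genes with mucin-like proteins or names, though *TMCO3*, with 615 per kb, was not shown here to be either. Of its 8 listed members, 6 lay above the protein-coding median per kb, and 5 did with merged exons. Both counts include *TMCO3*, and the 6 include the noncoding *MUC20-OT1*. *MUC20-OT1* was the gene between these counts, since it was at percentile 95.6 with its representative transcript of 466 bases and at percentile 35.0 with merged exons. *CD44*, a hyaluronan receptor, had 1850 per kb, *PODXL*, a sialomucin of podocytes and vessels, had 1594 per kb, and *MCAM*, an adhesion molecule once named MUC18, had 740 per kb. The lowest were *SUSD2* with 45.1 and *PARM1* with 25.6 per kb. This list has 15 names, noncoding genes among them, and 8 of 15 were listed, beside 12325 of 19768 protein-coding genes.

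Mucin-type O-glycosylation starts with the GALNT enzymes, which attach the first sugar to serine or threonine, and C1GALT1 with its chaperone C1GALT1C1 extends it. Of 33 enzyme genes looked up, 21 were in the table, beside 12325 of 19768 protein-coding genes. Of these 21 enzyme genes, 8 lay above the median level per kb. *GALNT2* had the highest level with 907 per kb, then *GALNT10* with 595, the sialyltransferase *ST6GALNAC4* with 281 and *GALNT11* with 243. The lowest were *GALNT16* and *GCNT3*, the mucin-type branching enzyme, each with 11.3 per kb. Of 20 GALNT genes, 13 were listed and 5 were above the median. *C1GALT1* was at 90.5 and *C1GALT1C1* at 177 per kb.

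Of 21 genes of mucus-secreting cells 6 were listed, 4 of them above the median, and the trefoil factors *TFF1*, *TFF2* and *TFF3*, which are secreted with mucins, were not among them. The listed genes were the secretory regulator *CREB3L1* with 685 per kb, *FOXA2* with 483, *SPDEF*, a goblet cell transcription factor, with 290, *KLF4* with 192, the disulfide isomerase *AGR2*, needed for mucin folding, with 79.0, and *FCGBP*, a mucus protein, with 5.74. Of 14 genes whose proteins bind or cleave membrane mucins 12 were listed, 7 of them above the median. The share of all protein-coding genes that were listed was 12325 of 19768. The galectin genes *LGALS1* and *LGALS3* had 10938 and 1662 per kb, *CTNNB1* had 1839 and *EGFR* 1103. The lowest were *MSLN*, which binds MUC16, with 103 and *ERBB3* with 47.1. *ERBB2*, the partner of MUC4, had 342 per kb, and the sheddases *ADAM17* and *ADAM10* had 138 and 129.

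**Figure D4:**
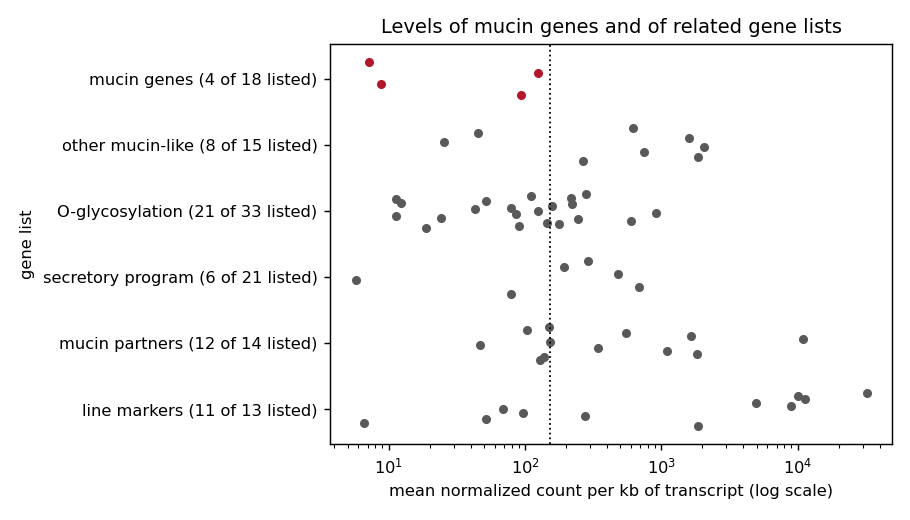
Mean normalized count per kb of transcript (log scale) for listed members of 6 gene lists, 1 point per gene, with the dotted line at the median of listed protein-coding genes. The 4 mucin genes lie between 7.21 and 125 per kb, below the line, while 8 of 21 O-glycosylation genes and 7 of 12 partner genes lie above it.

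The label of the line was checked against its markers. Of 13 marker names 11 were listed and 7 of these lay above the median per kb. *VIM*, with 32189 per kb, and the keratin genes *KRT7*, *KRT8* and *KRT18*, with 8980 to 11234 per kb, were among the most abundant transcripts. *CDH1*, the epithelial cadherin, was at 6.57 and the claudin gene *CLDN3* at 51.5 per kb, while the epithelial genes *KRT19* and *CLDN4* were at 4925 and 274 per kb, and *ESR1* and *PGR* were not in the table. Of 12 marker genes of immune, endothelial, fibroblast and liver cells 2 were listed, *COL1A1* with 32.5 and *PECAM1* with 10.1 per kb. *RBMS3*, the targeted gene, had 32.1 per kb as the authors' mean, and its knockdown was not checked here, since neither values per library nor the authors' comparison were used.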

How the data were processed

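Total RNA of 6 libraries (2 per hairpin) was sequenced by the authors with a stranded kit and paired ends. The submitters' processing notes name Salmon, DESeq2 and hg38 with no role. For this experiment, tool versions and annotation are not given in the sources used here. The authors deposited 1 table of 15917 genes. The deposited signal is the authors' normalized count of each gene, averaged over libraries that are not named, with no scaling by length. The table also holds the authors' comparison of knockdown with control cells (log2 fold change, standard error, test statistic, p and adjusted p), and these columns were not used. Which libraries entered the mean is not stated. The count test planned for values per library was not run, and depth per library is unknown.

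Ensembl identifiers of the table were looked up in GENCODE release 44 (GRCh38, the build named as hg38), where 15829 identifiers were found and 88 were not. The table's symbol differed in 3204 cases. Length was that of the MANE Select or Ensembl canonical transcript, otherwise the one with the longest coding sequence. Percentiles are over 12408 listed protein-coding genes. No protein sequences were used, so codons were counted in coding sequence instead, and the planned protein identity and cysteine motifs were not computed. Shared windows of 75 bases were sought on both strands in all GENCODE transcripts. The mucin genes, gene lists and alternatives were chosen with earlier results of these data known. By the rule for naming, all members are named, with the 4 highest and 2 lowest of each list per kb. Neighbouring genes, *C1GALT1*, *C1GALT1C1*, *ERBB2*, *ADAM10*, *ADAM17*, *KRT19* and *CLDN4* were added for their position or role with their values seen. *TMCO3* was likewise named later, as part of a count. The functions passed all 9 checks on simulated data. Python 3.11.15, numpy 2.4.6, pandas 2.3.3 and matplotlib 3.10.9 were used.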

Additional observations from a re-analysis of the deposited data

How the results depend on the processing

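Over 8 results, 27 alternatives were computed, 6 of them chosen after seeing the data, and 16 stayed within 1.5 times the count or 10 percentile points. The number of mucin genes above the median was 0 with the representative transcript. It was 1 with merged exons and 1 without length scaling (*MUC5AC* in both), and 1 with the shortest coding transcript (*MUC1*). These changes follow from the length used. With merged exons the length of *MUC5AC* stayed the same and those of other genes grew. With the shortest coding transcript only the lengths of the mucins were changed. Mucins with an AUA match numbered 3, and 0 when matches with AATAAA were set aside, which was among the later choices. The number of O-glycosylation genes above the median, 8, ran from 8 to 10 over its alternatives. The count of 4 mucins past percentile 95 in serine, threonine and proline codons was 4 with proline left out and with listed genes alone.

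Alternatives that need values per library (another normalization, another filter, each replicate left out, each hairpin alone) were not run. No paired analysis was possible because each gene has 1 mean and no value per replicate.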
